A study of Mus musculus with 16 samples.

Results

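CD8αα T cells were compared with CD8αβ T cells that came from the same kind of thymic culture, RTOC, the usual abbreviation for reaggregate thymic organ culture, in which dispersed thymocytes and thymic stroma are put back together. The comparison covered 6 of the 16 arrays of a mouse series on innate and adaptive lymphocytes, the 3 arrays titled CD8aaT and the 3 titled CD8abT. CD8aaT cells were TCRβ+CD8α+CD8β- cells from cultures given the agonist Smcy at the dose the labels call high, written as 10 mM. CD8abT cells were TCRβ+CD8α+CD8β+ cells from cultures given the same agonist at the dose called low, written as 100 nM. About 50000 cells were sorted per sample in both groups. The strain, the genotype and the antigen receptor of the cultured cells were not given in the labels used here, and neither was the source of the stroma. Dose and lineage changed together, so a difference between the groups is a difference between CD8αα cells made with much agonist and CD8αβ cells made with little, and the dose and the lineage cannot be told apart. The size of the dose gap depends on whether the millimolar unit is written as meant, which is not known.

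Most CD8 T cells carry a CD8αβ heterodimer, which holds the kinase Lck close to the antigen receptor and makes contact with MHC class I. A smaller population carries CD8αα homodimers, which are weak coreceptors. Such cells are abundant in the epithelium of the intestine, and their thymic precursors are selected by strong agonist ligands, the kind of signal that deletes conventional thymocytes. They share many surface receptors with natural killer (NK) cells.

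Each sample was 1 oligonucleotide array, and its values are RMA intensities on a linear scale, with medians from 30.4 to 31.8 over the 6 CD8 arrays. Over the whole series medians ranged up to 76.2, so levels were compared only within the CD8 pair and other cells only through their own differences. Same-numbered CD8aaT and CD8abT arrays deviated together from their group means (correlations of 0.64, 0.60 and 0.66), so the number was fitted as a block. The 3'/5' ratio of the beta-actin control probe sets, which tells of the length of the labelled RNA, was 5.80, 5.76 and 5.15 in CD8aaT arrays and 6.57, 11.6 and 7.92 in CD8abT arrays, without overlap. The same ratio for GAPDH was 20.89, 17.62 and 7.369 in CD8aaT arrays and 24.03, 30.39 and 9.47 in CD8abT arrays. Its groups overlapped, with replicate 3 lowest in both, while within each number the CD8abT array was higher. The GAPDH ratio was not fitted as a covariate. These are bulk samples, in which fewer cells expressing a gene and less of its RNA per cell cannot be told apart. The labels call the replicates biological without saying whether cultures or animals were separate, so the p-values only reflect the spread among these samples, which may be technical.

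CD8aaT cells differed from CD8abT cells in a small set of genes, most of them higher in CD8aaT cells. Of 12422 probe sets tested, 103 were called at an adjusted p under 0.05 (limma with Benjamini-Hochberg adjustment), 78 higher and 25 lower in CD8aaT, which is 0.829% called, 0.628% higher and 0.201% lower. The 103 included 88 genes with a single symbol, 69 higher and 19 lower. The gene lists below use the brightest probe set of each gene. By that probe set 64 of all 8251 genes were called higher and 16 lower, and 3424 lay above 0 and 4827 below. At least a 2-fold difference was reached by 47 of the called probe sets that were higher and by 6 that were lower. All 103 differed in the same direction in the 3 numbered pairs, which a fit with the number as a block favours, and 83 had no overlap between the groups. Of the 12422 probe sets 2041 were higher and 3126 lower in CD8aaT in all 3 pairs. Over all probe sets 716 (5.76%) lay higher and 684 (5.51%) lower in CD8aaT without overlap, and the median difference was -0.05 on the log2 scale. A value written with ± is the log2 difference CD8aaT minus CD8abT, unless another pair is named, with its standard error in the fit. The difference comes from 3 arrays per group, and the error rests on a spread estimated over all 16 arrays.

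The number of calls varied widely between the alternatives. Without the replicate block 23 were called, all of them among the 103, and with the block and the 6 CD8 arrays alone 39 were called, 31 of them among the 103. Without replicate 2 of both groups the count was 20 and without replicate 3 it was 31, against 82 without replicate 1. With the beta-actin ratio as a covariate beside the block, 7 probe sets were called, those of Car2, Cd244a, Ahnak, Klrd1, Kit, Lat2 (its dimmer probe set) and Cd8b1. As the ratio does not overlap between the groups, this fit cannot fully separate the ratio from the group. Some calls were lost although the difference grew, as for Ccl5 (3.52), Tyrobp (1.61), Anxa2 (2.08) and Cd8a (-1.03). That covariate also moved the differences of some genes named here by more than 1.5 times, all of them without a call there: Mdfic to 1.41, Ttc39b to 0.83, Il7r to 0.79, Tnfsf11 to 0.63, Rsad2 to 0.57, S100a10 to 0.44, Gata3 to 0.33, Drc1 to -0.72, Cd2 to -0.54, Setd4 to -0.37 and Lgmn to -1.06, with the second probe set of Socs3 at -0.39. All 103 kept their sign in every alternative that tested them, but in many of these the sign could not change. Changing the block, the other arrays in the fit, the filter on dim probe sets or the prior leaves each difference as it was. Leaving out a numbered pair cannot reverse a gene that moved alike in all 3. Of the 48 called genes named here, 14 were called without each replicate number in turn: Cd8b1, Car2, Cd244a, Ahnak, Klrd1, Mdfic, Id2, Kit, Lat2, Cd9, Ccdc50, Anxa2, Socs3 and Bcl2l11. The other 34 lost their call without at least 1 number. Cd6 and Rgs16, called on a dimmer probe set only, are not among the 48.

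**Figure D1:**
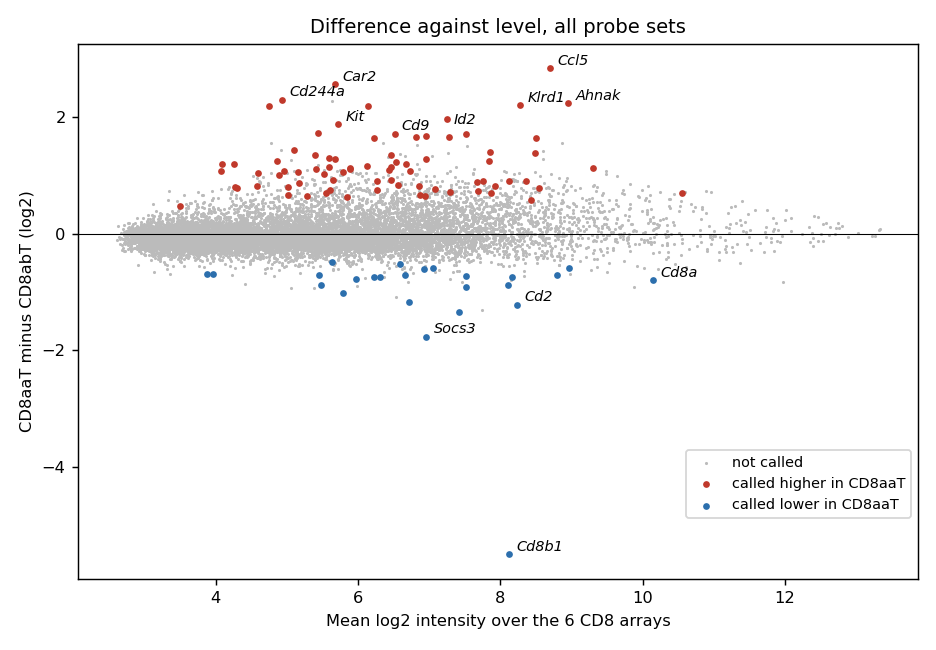
Difference CD8aaT minus CD8abT (log2, vertical axis) against the mean log2 intensity over the 6 CD8 arrays (horizontal axis), 1 point per probe set, for 12422 probe sets. Red points are the 78 called higher and blue points the 25 called lower in CD8aaT; Cd8b1 lies far below the rest at -5.51, and the named increases reach 2.84 for Ccl5.

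The CD8 chains differed, Cd8b1 as the sort gates require. Cd8b1, which encodes the CD8β chain that the CD8aaT gate leaves out, was at 31.7, 49.3 and 44.6 in CD8aaT and 1043, 2324 and 2704 in CD8abT. The groups were far apart, and the difference of -5.51 ± 0.19 (log2 ± SE, adjusted p = 2.7e-07) is a check of the labels and not a finding. Cd8a, which encodes the CD8α chain present in both gates, was at 896, 805 and 878 in CD8aaT and 1741, 1445 and 1341 in CD8abT. All 3 CD8aaT arrays lay below all CD8abT arrays, with a difference of -0.80 ± 0.11 (log2 ± SE, adjusted p = 0.0119). This call was lost without replicate 1 and without replicate 2. The CD3 chains, which pass the signal of the antigen receptor into the cell, differed less: Cd3e was at 209, 270.4 and 159 in CD8aaT and 241, 349 and 175 in CD8abT (-0.24 ± 0.09), and the values were -0.16 ± 0.13 for Cd3d, -0.28 ± 0.14 for Cd3g and -0.37 ± 0.11 for Cd247. Their groups overlapped and none of these 4 was called. Cd4 was at -0.18. The list of CD8 chains and receptor complex held 7 measured genes, 2 called lower and none higher, and all 7 lay below 0 (median -0.28, against -0.04 over all 8251 genes, of which 41.5% lay above 0).

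In CD8aaT cells 3 NK-cell receptors rose. Cd244a, which encodes 2B4, a receptor for CD48 on NK cells and CD8 T cells, was at 78.8, 53.8 and 73.6 in CD8aaT and 14, 15.8 and 11.8 in CD8abT. The lowest CD8aaT array lay 3.40 times as high as the highest CD8abT array, and the difference was 2.30 ± 0.19 (log2 ± SE, adjusted p = 0.000435). Klrd1 encodes CD94, the partner chain of the NKG2 receptors. It was at 566, 599 and 865 in CD8aaT and 72.2, 153 and 271 in CD8abT, with a difference of 2.20 ± 0.20 (log2 ± SE, adjusted p = 0.000825). The groups did not overlap, although both spread widely and replicate 3 was highest in each. Klrb1a, a receptor of the NKR-P1 family, was at 34.8, 34.3 and 74.8 in CD8aaT and 24.2, 15.5 and 17.9 in CD8abT and differed by 1.24 ± 0.22 (log2 ± SE, adjusted p = 0.0331), with replicate 3 of CD8aaT well above the others.

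Of 15 NK-cell receptors measured, these 3 were called higher and none lower, and 11 of the 15 lay above 0 with a median of 0.14. Over all 8251 genes 64 were called higher and 16 lower, and 3424 lay above 0. Without the replicate block 2 were called, Klrb1a being lost. Cd160, a receptor for a TNF receptor family member, was not called (0.90 ± 0.21), and CD8abT replicate 3 (386) lay within the CD8aaT values of 378, 365 and 459. Klrk1, which encodes NKG2D, was at 28, 30.2 and 28.6 in CD8aaT and 24.7, 28.4 and 23.5 in CD8abT (0.18 ± 0.12), dim and overlapping in both groups. No NK-cell receptor on this list passed the test in the lower direction (0 at an unadjusted p under 0.05 as well).

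Of the adaptors that carry signals of such receptors 2 rose, 1 of them on a single probe set. Tyrobp, which encodes DAP12, an adaptor with an activating motif, was at 42.3, 74 and 76.7 in CD8aaT and 17.7, 40.2 and 34.1 in CD8abT. The CD8aaT array of each number was the higher one, and the difference was 1.10 ± 0.19 (log2 ± SE, adjusted p = 0.0308). The groups did not overlap, the lowest CD8aaT array lying 1.05 times as high as the highest CD8abT array. This call was lost whichever of the 3 numbers was left out, without the block and with the beta-actin covariate. Lat2, a relative of the T cell adaptor Lat that is used mainly by B cells, mast cells and NK cells, had a probe set at 127, 63.3 and 59.9 in CD8aaT and 24.2, 25.4 and 22 in CD8abT with a difference of 1.72 ± 0.18 (log2 ± SE, adjusted p = 0.00207). Its other, brighter probe set overlapped between the groups and was not called (0.94 ± 0.25, adjusted p = 0.129). Of 7 adaptors measured Tyrobp was called, and Lat2 on its dimmer probe set only. Fcer1g, the Fc receptor γ chain, was at 0.26 ± 0.10 and not called.

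Ccl5 showed the largest called increase. It encodes the chemokine RANTES, which effector and memory CD8 T cells and NK cells store and release. It was at 1411, 1126 and 861 in CD8aaT and 65.1, 194 and 299 in CD8abT. No CD8abT array came near the CD8aaT arrays, but the CD8abT values themselves spread from 65.1 to 299, and the difference was 2.84 ± 0.41 (log2 ± SE, adjusted p = 0.0122). Without replicate 2 the call was lost. Of 16 chemokines measured Ccl5 was the 1 called, with a list median of -0.04. Xcl1, the chemokine lymphotactin, was at 68.7, 80.5 and 138 in CD8aaT and 53.9, 41.4 and 80.1 in CD8abT and was not called (0.70 ± 0.19). Ccl6, a chemokine best known from myeloid cells, was also not called (-0.76 ± 0.17).

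Among 16 chemokine receptors, 1 was called higher and none lower. Cxcr3, the receptor for interferon-induced chemokines on effector T cells, was at 98.6, 228 and 121 in CD8aaT and 32.1, 75.1 and 69.3 in CD8abT with a difference of 1.34 ± 0.16 (log2 ± SE, adjusted p = 0.00497). All CD8aaT arrays lay above all CD8abT arrays, and the call was lost without replicate 2 and without the block. Ccr7, the receptor that guides naive T cells into lymph nodes, was at 16.7, 14.8 and 15.7 in CD8aaT and 22.4, 28.9 and 35.8 in CD8abT, lower in CD8aaT without overlap but not called (-0.86 ± 0.26). Ccr9, the receptor for the gut and thymus chemokine CCL25, was not called either (-0.53 ± 0.14). None of 18 effector cytokines was called, among them Ifng, Tnf and Il2, with a list median of -0.04 (limma; 0 higher and 2 lower at an unadjusted p under 0.05).

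Receptors for growth and survival factors included 2 called genes, both higher in CD8aaT, of 28 measured (median -0.04). Kit, the receptor for stem cell factor, is found on early thymocytes, mast cells and precursors of intestinal CD8αα cells. It was at 132, 72.2 and 107 in CD8aaT and 35.4, 23.9 and 24.6 in CD8abT. CD8aaT replicate 2 was the lowest of its group and still 2.04 times the highest CD8abT array, with a difference of 1.87 ± 0.14 (log2 ± SE, adjusted p = 0.000209). Il7r, which encodes the α chain of the interleukin 7 receptor that keeps naive and memory T cells alive, was at 251, 699 and 205 in CD8aaT and 129, 98.8 and 80.5 in CD8abT. CD8aaT replicate 2 stood far above the other arrays, the groups did not overlap, and the difference was 1.71 ± 0.27 (log2 ± SE, adjusted p = 0.0194). Its call was lost without replicate 3, without the block, with the 6 arrays alone and with the beta-actin covariate, under which the difference was 0.79.

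The largest values among the uncalled members of this list were mixed in direction, with CD8aaT replicate 2 the highest array for the 2 above 0. Il18r1, a chain of the interleukin 18 receptor, was at 23.3, 134 and 38.7 in CD8aaT and 16.3, 15.6 and 24.6 in CD8abT, and the groups overlapped (not called, 1.43 ± 0.40). Ifngr1, the ligand-binding chain of the interferon γ receptor, was at 102, 193 and 117 in CD8aaT and 77, 61.6 and 77.5 in CD8abT, higher in CD8aaT without overlap and not called (0.88 ± 0.20). Il6ra, the interleukin 6 receptor, was at 50.6, 45.4 and 43.2 in CD8aaT and 56.7, 72.2 and 157 in CD8abT and not called (-0.90 ± 0.34).

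Of 20 TNF superfamily ligands and receptors, 2 were called higher and none lower (median -0.05). Tnfsf11 encodes RANKL, which thymocytes use to signal to medullary epithelium. It was at 39.1, 73.1 and 63.7 in CD8aaT and 22.7, 14.2 and 28.3 in CD8abT, without overlap, and differed by 1.44 ± 0.24 (log2 ± SE, adjusted p = 0.0244). Tnfrsf18, which encodes GITR, a receptor raised on agonist-selected and regulatory T cells, was at 405, 351 and 391 in CD8aaT and 237, 190.0 and 188 in CD8abT and differed by 0.90 ± 0.16 (log2 ± SE, adjusted p = 0.0355). Its arrays were tight within each group, yet both calls were lost without replicate 2 and without replicate 3. Traf5, a signal transducer of this receptor family, was at 0.51 ± 0.12 and not called.

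The transcription factor with the largest increase was Id2, an inhibitor that binds E proteins and is needed for NK cells and effector CD8 T cells. It was at 227, 283 and 419 in CD8aaT and 52.5, 52.1 and 165 in CD8abT. CD8abT replicate 3 was the highest of its group and stayed below every CD8aaT array, and the difference was 1.97 ± 0.20 (log2 ± SE, adjusted p = 0.00170). Gata3, a factor for CD4 lineage choice and type 2 responses, was at 71.9, 145 and 93.5 in CD8aaT and 47.7, 70.1 and 63 in CD8abT. Each CD8aaT array was above its numbered partner, and the lowest CD8aaT value (71.9) lay just above the highest CD8abT value (70.1), with a difference of 0.74 ± 0.14 (log2 ± SE, adjusted p = 0.0414) and a call that was lost whichever of the 3 numbers was left out. Of 22 lineage and effector factors these 2 were called, and the list median was 0.02. Ets1, Stat4 and Bhlhe40 were higher in CD8aaT without overlap but not called, at 1.08 ± 0.22, 0.70 ± 0.16 and 0.61 ± 0.20. A second probe set of Ets1 was at -0.10 with overlap. For Bhlhe40 the value with the beta-actin ratio as a covariate was -0.08.

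Among factors of immature thymocytes 2 fell in CD8aaT cells. Notch1, the receptor that commits progenitors to the T lineage, was at 265, 464 and 341 in CD8aaT and 493, 579.7 and 635 in CD8abT. The groups did not overlap and the difference was -0.71 ± 0.13 (log2 ± SE, adjusted p = 0.0414), while a dim second probe set was at -0.21 and not called. Satb1, a chromatin organiser of developing thymocytes, was at 113, 422 and 175 in CD8aaT and 203, 653 and 397 in CD8abT. Replicate 2 was high in both groups, which overlapped, but each CD8aaT array was below its numbered partner, and the difference was -0.89 ± 0.14 (log2 ± SE, adjusted p = 0.0167). Both were the 2 of 12 E proteins and thymic factors called lower, with none called higher (median -0.13), and both calls were lost whichever of the 3 numbers was left out. Lef1, a partner of β-catenin, was at 86.6, 194 and 149 in CD8aaT and 126, 580.3 and 522 in CD8abT and was not called (-1.31 ± 0.27). Sox4 was at -0.75 ± 0.19 and Dtx1, a target of Notch signalling, at -0.72 ± 0.26, and neither was called.

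Genes typical of double-positive thymocytes, the stage before lineage choice, lay below 0 in 12 of 15 cases, against 4827 of all 8251 genes. Their median was -0.17, and Satb1 was the 1 called. Dntt, which adds nucleotides during receptor rearrangement, was at 22.8, 23.3 and 25 in CD8aaT and 29.5, 45.8 and 27.5 in CD8abT, below CD8abT in every CD8aaT array and not called (-0.50 ± 0.15). Cd24a, the heat stable antigen of immature thymocytes, was at 77.5, 81.9 and 83.1 in CD8aaT and 127, 199 and 81.9 in CD8abT (-0.66 ± 0.29, not called), with CD8abT replicate 3 inside the CD8aaT values. Of 10 genes of single-positive maturation, Il7r was called higher and none lower, with a median of -0.01.

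Of the surface molecules common to T cells, 2 fell in CD8aaT cells and most others lay below 0. Cd2, an adhesion and costimulatory molecule that binds CD48, was at 203, 204 and 184 in CD8aaT and 323, 594 and 501 in CD8abT. CD8aaT arrays were close together and all below the CD8abT arrays, with a difference of -1.22 ± 0.21 (log2 ± SE, adjusted p = 0.0268). Cd5, a brake on the antigen receptor whose level follows the strength of selection, was at 82, 195 and 147 in CD8aaT and 122, 406 and 324 in CD8abT. The 2 groups overlapped across numbers, while within each number the CD8aaT array was lower, and the difference was -0.92 ± 0.13 (log2 ± SE, adjusted p = 0.0116). Cd6, a relative of Cd5, was called lower on the dimmer of its 2 probe sets (-1.17 ± 0.18, adjusted p = 0.0174) and not on the brighter (-0.66 ± 0.15). Of 13 pan-T cell markers 12 lay below 0, against 4827 of all 8251 genes. Cd2 and Cd5 were called on the brightest probe set, and the list median was -0.28. Thy1 was at 522, 1179 and 516 in CD8aaT and 797, 1746 and 1526 in CD8abT and not called (-0.91 ± 0.19). The member above 0 was Cd7, at 576, 697 and 557 in CD8aaT and 88.8, 353 and 497 in CD8abT, which lay above CD8abT without overlap and was not called (1.28 ± 0.34). The calls of Cd2 and Cd5 were lost without replicate 2, without replicate 3, without the block and with the beta-actin covariate, under which Cd2 was at -0.54 and Cd5 at -0.71.

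Brakes on receptor signalling changed in both directions. Socs3, which shuts off cytokine receptors that signal through gp130, was at 56.8, 108 and 49.7 in CD8aaT and 223, 294 and 184 in CD8abT, a difference of -1.77 ± 0.19 (log2 ± SE, adjusted p = 0.00265) without overlap. Its second probe set was also called lower (-0.74 ± 0.14, adjusted p = 0.0458). Socs3 was the 1 called of 5 SOCS family genes. Socs2 was at 0.75 ± 0.28 and not called, and with the beta-actin ratio as a covariate its value was -0.20. Sit1, an adaptor that dampens the antigen receptor, was at 31.4, 40.0 and 46.2 in CD8aaT and 59.3, 78.2 and 105 in CD8abT and differed by -1.02 ± 0.15 (log2 ± SE, adjusted p = 0.0122). Rgs2, which ends signals of G protein-coupled receptors, was at 47.9, 85.7 and 74.5 in CD8aaT and 26.7, 33.3 and 20.5 in CD8abT, with all CD8aaT arrays above all CD8abT arrays and a difference of 1.36 ± 0.16 (log2 ± SE, adjusted p = 0.00457). In the list of 20 brakes Rgs2 was called higher and Cd5 and Sit1 lower, with a median of 0.07. Rgs16, a relative of Rgs2, was called higher on the dimmer of its 2 probe sets only (1.06 ± 0.15, adjusted p = 0.0117). Ptpn22, a phosphatase of receptor signalling, and Rasa1, a Ras inhibitor, were not called (0.79 ± 0.19 and 0.64 ± 0.18).

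The antigen receptor's own signalling chain and its immediate targets gave no call. Of 19 signalling genes none was called (limma; 1 higher and 1 lower at an unadjusted p under 0.05), with a median of -0.06, and Ptprc, which encodes CD45, had the largest value (0.61 ± 0.20). Of 21 immediate-early genes none was called (2 higher and 0 lower at an unadjusted p under 0.05), with a median of -0.01. Egr2, a factor induced by strong receptor signals, was at 168, 221 and 361 in CD8aaT and 165, 116 and 133 in CD8abT. All CD8aaT arrays lay above all CD8abT arrays, but the gap was narrow in replicate 1, and the value was 0.80 ± 0.23, not called. Btg1 and Klf6 followed at 0.56 ± 0.15 and 0.56 ± 0.26, also not called.

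In CD8aaT cells 3 genes of a membrane scaffold rose. Ahnak, a giant scaffold protein that supports calcium entry in T cells, was at 956, 1491 and 872 in CD8aaT and 243, 292 and 168 in CD8abT. The groups were far apart, with a difference of 2.24 ± 0.14 (log2 ± SE, adjusted p = 5.1e-05). Anxa2 encodes annexin A2, which binds membranes with calcium and pairs with S100A10 in a complex that also holds AHNAK. It was at 783, 523 and 643 in CD8aaT and 172, 207 and 245 in CD8abT and differed by 1.64 ± 0.20 (log2 ± SE, adjusted p = 0.00582). S100a10 was at 1579, 2430.2 and 1844 in CD8aaT and 1114, 1249 and 1179 in CD8abT and differed by 0.70 ± 0.11 (log2 ± SE, adjusted p = 0.0142), again without overlap. A second, dim probe set of S100a10 overlapped and was at -0.03. Of 25 S100 proteins, annexins and Ahnak these 3 were called higher and none lower, while the list median was -0.02. Over all 8251 genes 64 were called higher and 16 lower. S100a4 was at 96, 295 and 135 in CD8aaT and 81.3, 68.5 and 70.0 in CD8abT, with CD8aaT replicate 2 far above the rest, and was not called (1.10 ± 0.27), and neither was S100a6 (0.79 ± 0.19).

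Cd9, a tetraspanin that organises integrins and other membrane proteins, was at 218, 137 and 151 in CD8aaT and 56.4, 44.2 and 51.2 in CD8abT. The CD8aaT arrays were all at least 2.43 times the highest CD8abT array, and the difference was 1.71 ± 0.19 (log2 ± SE, adjusted p = 0.00283). It was the 1 called of 13 tetraspanins. Of 24 integrins and adhesion molecules Cd2 was called lower and none higher. Itga4, the integrin α4 chain, was at 62.8, 78.7 and 56 in CD8aaT and 17.9, 37.7 and 35.3 in CD8abT, higher without overlap and not called (1.18 ± 0.31). Its 2 other probe sets were at 0.48 and 0.21.

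Of the granule genes 2 rose in CD8aaT cells. Serpinb9, an inhibitor that protects cytotoxic cells from their own granzyme B, was at 55.8, 35.3 and 38.9 in CD8aaT and 24.7, 24.6 and 24.4 in CD8abT. The CD8abT arrays were all but equal and below every CD8aaT array, with a difference of 0.79 ± 0.14 (log2 ± SE, adjusted p = 0.0334). Lamp2, a lysosomal membrane protein, differed by 0.74 ± 0.12 (log2 ± SE, adjusted p = 0.0219), within each number but with overlap across numbers, and a dimmer probe set was at 0.38 and not called. These 2 of 17 granule genes were called higher and none lower (median 0.22), and neither call held when any 1 of the 3 numbers was left out. Srgn, the proteoglycan core of the granules, was at 249, 251 and 321 in CD8aaT and 161, 144 and 144 in CD8abT, without overlap and not called (0.86 ± 0.20), and Serpinb6a was also not called (1.04 ± 0.25).

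Bcl2l11, which encodes BIM, the killer protein through which strong antigen receptor signals delete thymocytes, was at 327, 312 and 425 in CD8aaT and 112, 143 and 206 in CD8abT. All CD8aaT arrays lay above all CD8abT arrays and the difference was 1.24 ± 0.15 (log2 ± SE, adjusted p = 0.00497), on the brightest of 3 probe sets. The 2 dim ones were at -0.07 and -0.12 with overlap. It was the 1 called of 25 apoptosis regulators (median 0.07). Casp2 was the next largest at 0.74 ± 0.21, not called.

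The remaining genes of the 30 chosen by size belong to no group of several called members. Car2, carbonic anhydrase 2, was at 88.4, 118 and 182 in CD8aaT and 20.0, 22 and 21.1 in CD8abT. The CD8abT arrays were level and the CD8aaT arrays several times higher, a difference of 2.56 ± 0.16 (log2 ± SE, adjusted p = 5.1e-05). Mdfic, a protein with the domain of the MyoD family inhibitor, was at 113, 216 and 141 in CD8aaT and 34.8, 36.1 and 28.9 in CD8abT, with a difference of 2.19 ± 0.24 (log2 ± SE, adjusted p = 0.00265). Ccdc50, a ubiquitin-binding protein, was at 218, 238 and 210.0 in CD8aaT and 70.6, 80.0 and 58.5 in CD8abT, tight in both groups, with a difference of 1.68 ± 0.18 (log2 ± SE, adjusted p = 0.00207). Its other probe set was dim and at 0.05. Ttc39b, a tetratricopeptide repeat protein, was at 128, 158 and 114 in CD8aaT and 52.2, 47.4 and 30.8 in CD8abT and differed by 1.64 ± 0.27 (log2 ± SE, adjusted p = 0.0236) on 1 of 4 probe sets. The other 3, the brightest among them, were not called (0.23, 0.47 and 0.09).

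The remaining decreases by size include enzymes, a transcription factor and a receptor. Drc1, a protein of ciliary dynein regulation, was at 126, 114 and 86.7 in CD8aaT and 173, 422 and 277 in CD8abT with a difference of -1.34 ± 0.22 (log2 ± SE, adjusted p = 0.0252), and its dimmer probe set was at -0.55 and not called. Klk8, a secreted protease, was called lower on both probe sets, at -0.78 ± 0.11 where the groups did not overlap and -0.72 where they did. Klf13, a zinc finger factor that regulates Ccl5 in T cells, was at 128, 175 and 127 in CD8aaT and 204, 294 and 213 in CD8abT with a difference of -0.72 ± 0.12 (log2 ± SE, adjusted p = 0.0252). Its dimmer probe set was at -1.10 ± 0.31, overlapping and not called. Uhmk1, a kinase of splicing regulation, was called lower on a dimmer probe set (-0.74 ± 0.13), while its brightest was at 0.92 ± 0.39 and not called, and the third was at -0.07. Setd4 (-0.71 ± 0.13), Lgmn, a lysosomal protease (-0.69 ± 0.13), Mybbp1a (-0.59 ± 0.12), Tbxa2r, the thromboxane receptor (-0.53 ± 0.10) and Ptov1 (-0.49 ± 0.09) were also called lower without overlap. Other probe sets of Mybbp1a (-0.02 and -0.23) and of Ptov1 (-0.40, the brighter one) were not called. Lgmn lay at 11.4 to 29.7, near the lowest intensities on these arrays. Of the 9 genes in this paragraph, each lost its call without at least 1 replicate number.

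**Figure D2:**
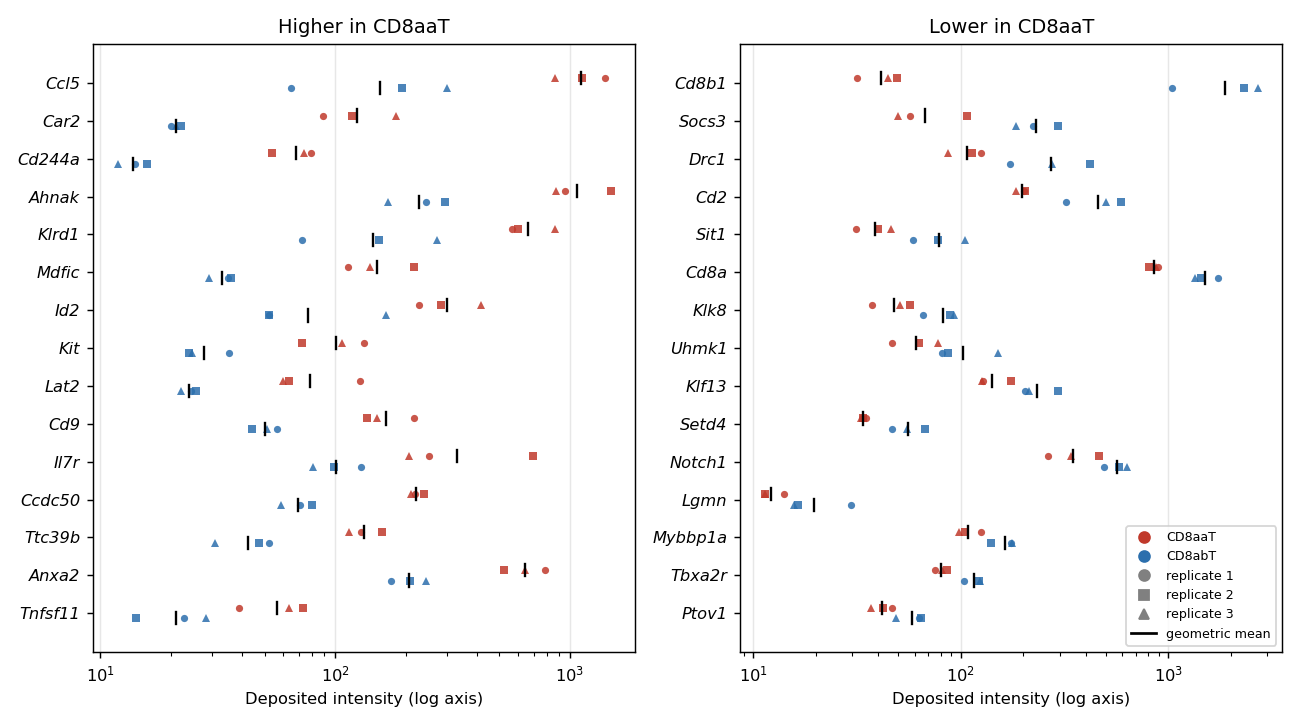
Deposited intensity (log axis) on each of the 3 CD8aaT arrays (red) and 3 CD8abT arrays (blue) for the 15 largest called increases (left) and the 15 largest called decreases (right) among genes whose groups do not overlap; the marker shape gives the replicate number and the black bar the geometric mean of 3 arrays. Ccl5 lies at 861 to 1411 in CD8aaT and at 65.1 to 299 in CD8abT, and Cd8b1 at 31.7 to 49.3 against 1043 to 2704.

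Most interferon-induced genes lay above 0 in CD8aaT cells, and few were called. Type I interferons switch these genes on through STAT proteins and IRF9, which bind the interferon-stimulated response element, a paired GAAA motif. Of 34 measured, 5 were called higher and none lower, and 27 lay above 0, or 79.4% against 41.5% of all genes. The median was 0.44 on the log2 scale, and by numbered pair it was 0.32, 0.53 and 0.28. It was 0.34 without replicate 2 of both groups, 0.20 without CD8aaT replicate 2 alone (no replicate block), and 0.15 with the beta-actin ratio as a covariate, the lowest of the alternatives. The highest was 0.56, without CD8aaT replicate 3 alone. Without the replicate block none was called (17 of the 34 were higher and 1 lower at an unadjusted p under 0.05 with the block), and each of the 5 was lost without at least replicates 2 and 3.

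Rsad2, which encodes the antiviral enzyme viperin, was at 46.7, 119.6 and 65.9 in CD8aaT and 32.9, 36.5 and 28.4 in CD8abT. Every CD8aaT array lay above every CD8abT array, CD8aaT replicate 2 the most, and the difference was 1.14 ± 0.19 (log2 ± SE, adjusted p = 0.0233). Plscr1, a phospholipid scramblase, was at 70.2, 85.9 and 82.8 in CD8aaT and 29.3, 31.3 and 38.3 in CD8abT, an even gap in the 3 numbers with a difference of 1.28 ± 0.25 (log2 ± SE, adjusted p = 0.0473). Mx1, a GTPase that traps viral proteins, was at 31.8, 122 and 35 in CD8aaT and 16.6, 41 and 22.3 in CD8abT. CD8abT replicate 2 lay above 2 of the CD8aaT arrays, so the groups overlapped, while within each number the CD8aaT array was higher, and the difference was 1.05 ± 0.19 (log2 ± SE, adjusted p = 0.0355). Usp18, which removes ISG15 from proteins and limits interferon signalling, was at 234, 582 and 188 in CD8aaT and 114, 312 and 108 in CD8abT and differed by 0.91 ± 0.15 (log2 ± SE, adjusted p = 0.0244), again with replicate 2 high in both groups. Trim30a, a restraint on NF-κB, was at 163, 151 and 82.3 in CD8aaT and 113, 86.9 and 36.4 in CD8abT and differed by 0.83 ± 0.15 (log2 ± SE, adjusted p = 0.0308), with a second, dim probe set at 0.10. Iigp1, Ifit3 and Gbp3 had the largest values among those not called, at 1.09 ± 0.31, 1.00 ± 0.23 and 0.97 ± 0.22. Iigp1 was at 39.2, 138 and 33.3 in CD8aaT and 28, 28 and 23.9 in CD8abT, so that CD8aaT replicate 2 alone stood out.

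**Figure D3:**
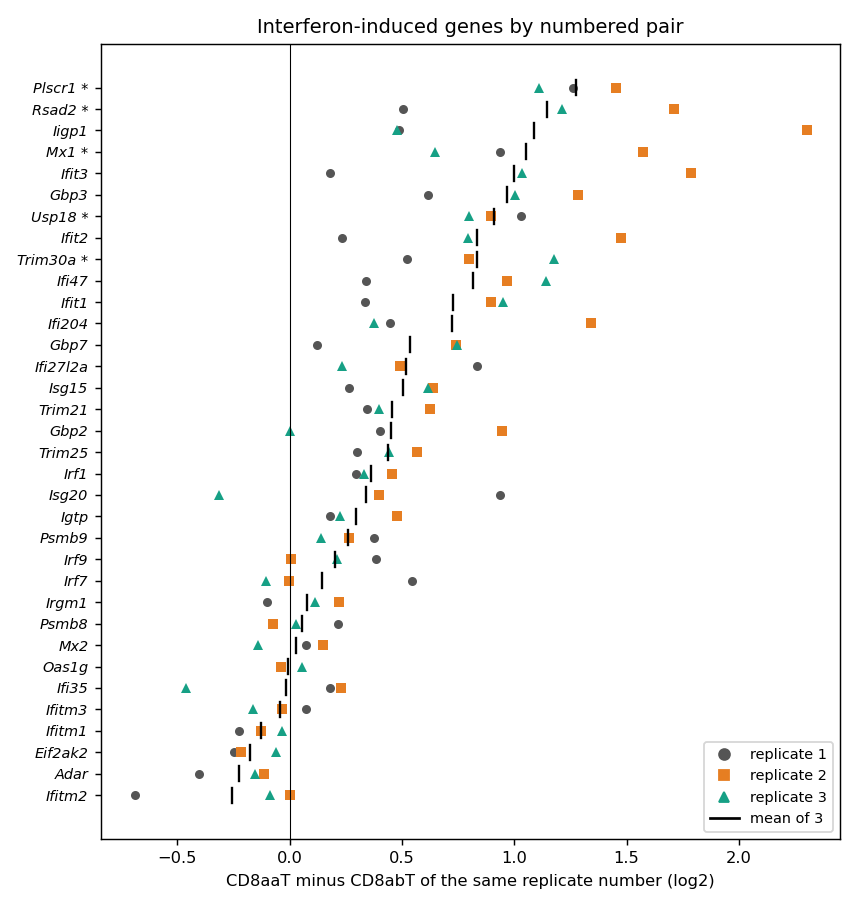
Difference CD8aaT minus CD8abT of the same replicate number (log2, horizontal axis) for the 34 interferon-induced genes, with 1 marker shape and colour per number and a black bar at the mean; an asterisk marks the 5 genes called higher. The median over genes is 0.32 in replicate 1, 0.53 in replicate 2 and 0.28 in replicate 3, and Iigp1 in replicate 2 lies farthest to the right.

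The promoters of this list were read for the paired motif, as most members lay above 0. The motif searched was GAAA, then 2 bases of any kind, then GAAA again, on both strands (TTTC, 2 bases and TTTC on the other), in a 300-base window from 250 bases before to 50 after the annotated start (RefSeq, GRCm38.p6). It was present in 15 of the 28 list genes with an entry (53.6%), against 3.99% of 27025 genes and 3.44% of 32851 promoters. The list was made up of genes known to answer interferon, so this share describes the list and does not bear on the difference between the groups. The median difference was 0.46 over the 15 genes with the motif and 0.26 over the 13 without, and 0.82 over the 6 genes with no entry. Among all called genes with an entry, 4 of 54 that were higher and 1 of 15 that were lower held it (7.41% and 6.67%). The stretches below run 5′ to 3′ on the strand of the gene up to at most the base before the start, and capitals mark every match, overlapping matches joined. Rsad2 and Trim30a are shown as called genes and Gbp3 and Ifit3 as uncalled ones with large values.
Rsad2, chr12:26456518-26456617, minus strand: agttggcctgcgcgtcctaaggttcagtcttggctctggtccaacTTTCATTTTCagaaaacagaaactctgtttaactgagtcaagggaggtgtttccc
Trim30a, chr7:104465194-104465274, minus strand: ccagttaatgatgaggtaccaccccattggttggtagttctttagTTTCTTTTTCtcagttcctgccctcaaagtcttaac
Gbp3, chr3:142559954-142560043, plus strand: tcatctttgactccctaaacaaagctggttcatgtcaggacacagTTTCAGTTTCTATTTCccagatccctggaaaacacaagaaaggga
Ifit3, chr19:34583328-34583461, plus strand: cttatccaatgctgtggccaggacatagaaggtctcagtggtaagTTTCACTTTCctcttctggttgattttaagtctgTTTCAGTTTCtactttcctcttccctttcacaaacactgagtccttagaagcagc
In Rsad2 and Trim30a the window holds 1 match in each stretch, 120 and 36 bases before the start, and in Gbp3 and Ifit3 there are 2. A match is a description of the letters and shows no binding.

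MHC class I genes, which interferon also induces, gave no call among 18 (limma; 4 higher and 0 lower at an unadjusted p under 0.05), with 12 above 0 and a median of 0.10. H2-D1 was at 2222, 3083 and 2401 in CD8aaT and 1086, 2136 and 1586 in CD8abT on its brightest probe set, above CD8abT without overlap and not called (0.72 ± 0.15). H2-K1 was at 1831, 2029 and 1589 in CD8aaT and 1219, 1432 and 1045 in CD8abT, likewise without overlap and not called (0.56 ± 0.13). Probe sets of these genes can share targets with other class I genes.

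Lists of general cell state gave few calls. None of 47 cell cycle genes was called (3 higher and 2 lower at an unadjusted p under 0.05; limma), with a median of -0.02 that was 0.24, -0.28 and 0.01 in the 3 numbered pairs. Mcm4, a subunit of the replicative helicase, had the largest value (0.74 ± 0.20). None of 16 glycolysis genes (median 0.10; 2 higher and 1 lower unadjusted), 18 heat shock genes (0.08; 0 and 0), 27 endoplasmic reticulum chaperones and stress genes (0.16; 2 and 1) or 28 ribosomal protein genes (-0.05; 1 and 0) was called. Hspa5, the chaperone BiP, was at 212, 235 and 276 in CD8aaT and 155, 91.6 and 148 in CD8abT, without overlap and not called (0.90 ± 0.26).

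Of 16 cholesterol synthesis genes Sqle was called higher and none lower (median 0.13). Sqle, which encodes squalene epoxidase, was at 192, 129 and 144 in CD8aaT and 114, 84.9 and 97.7 in CD8abT. The groups did not overlap, and the difference was 0.64 ± 0.11 (log2 ± SE, adjusted p = 0.0332), a call lost whichever number was left out. Idi1, Hmgcs1 and Msmo1, further enzymes of the pathway, lay higher without overlap and were not called, at 1.07 ± 0.39, 1.00 ± 0.42 and 0.91 ± 0.28.

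**Figure D4:**
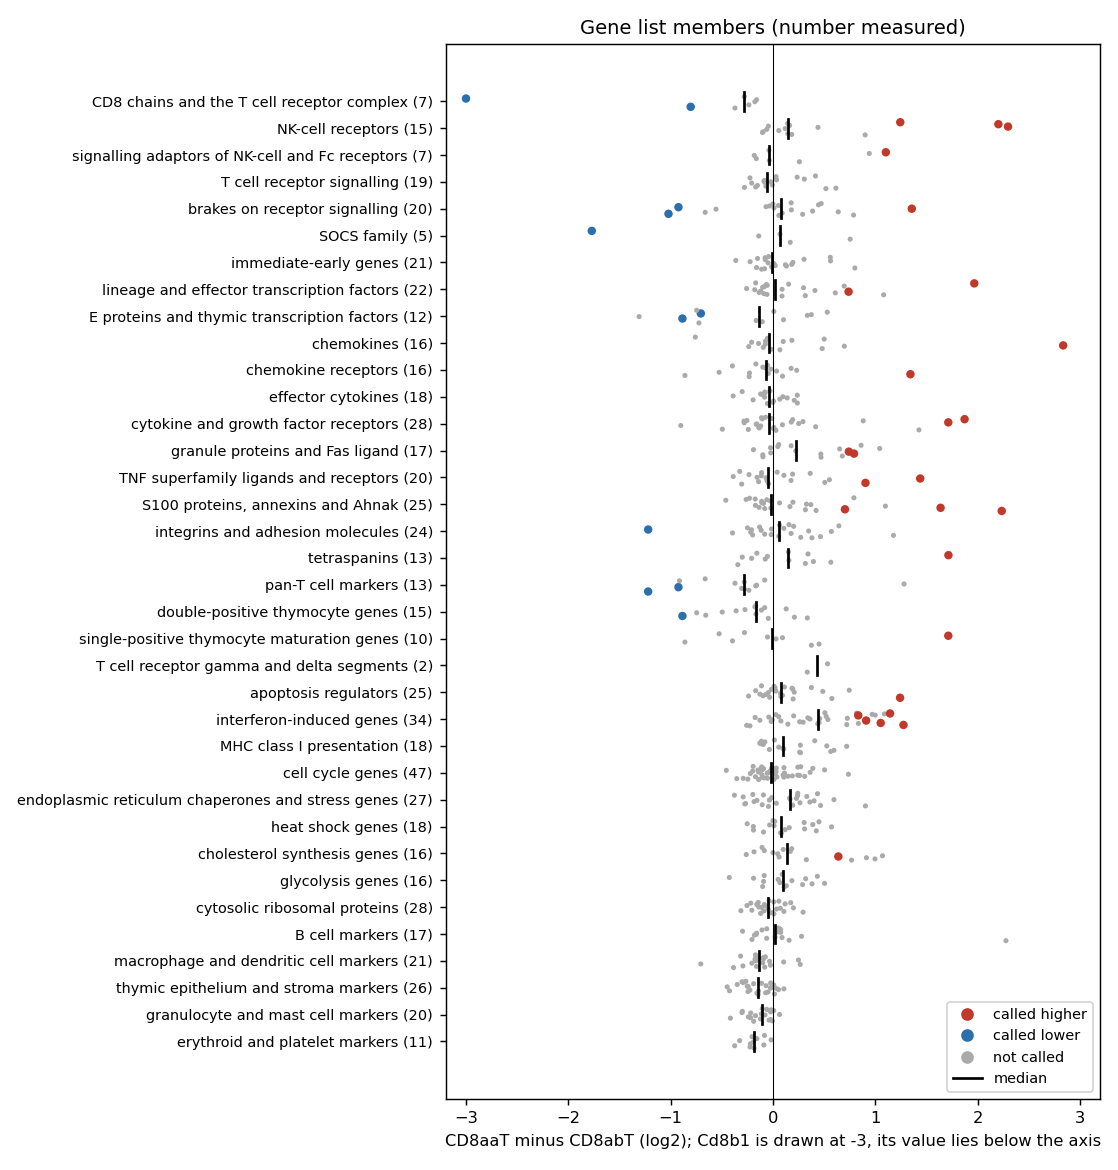
Difference CD8aaT minus CD8abT (log2, horizontal axis) of every measured member of each gene list, by the brightest probe set of each gene; red and blue points are called higher and lower, grey points are not called, black bars are medians, and the number measured stands in brackets. The interferon-induced list has a median of 0.44 and the CD8 and receptor list one of -0.28; Cd8b1, at -5.51, is drawn at the left edge.

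Markers of other cells that a culture with stroma could hold were examined in 5 lists, and none of their genes was called in either direction (limma). In the order macrophage and dendritic cells, thymic epithelium and stroma, granulocytes and mast cells, erythroid cells and platelets, 18 of 21, 21 of 26, 18 of 20 and 11 of 11 genes lay below 0. At an unadjusted p under 0.05 no gene of these 4 lists was higher, and 2, 7, 2 and 1 were lower. Over all 8251 genes 4827 lay below 0, and 832 were higher and 614 lower at that threshold. In the same order 3, 6, 1 and 0 genes lay lower in CD8aaT without overlap, against 485 of the 8251. Summed levels overlapped for macrophage markers (727 to 817 in CD8aaT and 766 to 869 in CD8abT), for stroma (725 to 995 and 842 to 1039), for granulocyte and mast cell markers (661 to 764 and 753 to 861) and for erythroid markers (657 to 776 and 746 to 991). Lyz2, the lysozyme of myeloid cells, was at 17.2, 13.8 and 13.4 in CD8aaT and 23, 18.6 and 32.2 in CD8abT and not called (-0.71 ± 0.32). Cpa3 and Tpsb2, proteases of mast cells, had values of -0.42 and -0.30 and were chosen after their values were seen. Both sort gates required TCRβ and CD8α, and so leave out cells that carry no T cell receptor β chain; the purity of the sorts was not given in the labels used here. RMA gives no value of 0, so absence cannot be read from these levels.

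B cell markers summed to 1057 to 1737 in CD8aaT and 936 to 1555 in CD8abT, with 9 of 17 genes above 0 and a median of 0.02. Blk stood out in this list. It encodes a Src-family kinase of B cells that some γδ T cells also use, and it was at 16.7, 593 and 130.2 in CD8aaT and 19.9, 27.1 and 21 in CD8abT. The high values came from replicates 2 and 3 of CD8aaT while replicate 1 lay at the CD8abT level, so the groups overlapped and the gene was not called (2.28 ± 0.62). Cd79a and Ms4a1, defining B cell genes, had values of -0.30 and 0.02 and were chosen with the results known. Of the T cell receptor γ and δ segments 2 were measured. Trgv1 was at 3258, 3477 and 2895 in CD8aaT and 2678, 2961 and 2061 in CD8abT and Trgv4 at 622, 585 and 331 in CD8aaT and 299, 346 and 384 in CD8abT, neither called (0.34 ± 0.13 and 0.53 ± 0.20). Whether these markers, or the beta-actin ratio that separates the groups, contribute to the differences above was not tested beyond the covariate.

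The other T cell pair of the series, splenic NKT cells (CD3+CD4+NK1.1+, 3 arrays) against splenic CD4 T cells without NK1.1 (CD4T, 3 arrays), both from wild-type C57BL/6 mice, shares no array with the CD8 pair. The differences within the 2 pairs were tested against each other. The NKT and CD4T samples held about 100000 sorted cells each, against 50000 in the CD8 pair. Their array medians were 49.6 to 54.1 against 30.4 to 31.8, and their GAPDH 3'/5' ratios 5.11 to 8.48 against 7.37 to 30.4. Whether these gaps alter the sizes of the differences in the 2 pairs was not tested. In the NKT pair 409 probe sets (3.29%) were called. The difference between the pairs was called for 202 probe sets (1.63%), 94 with the larger value in the CD8 pair and 108 with the smaller, and for 86 without the replicate block. Of the 103 called in the CD8 pair, 30 were also called the same way in NKT cells, 6 the opposite way, and 32 had a called difference between the pairs. The difference between the pairs contains the CD8 difference by which these 103, and the genes chosen by size, were picked. That choice favours called differences between the pairs among them.

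Ccl5, Klrd1, Id2 and Socs3 changed in both pairs. NKT minus CD4T was 3.10 ± 0.41 for Ccl5, 2.69 ± 0.20 for Klrd1, 2.60 ± 0.20 for Id2 and -1.83 ± 0.19 for Socs3, and the difference between pairs was not called for any of these 4 (adjusted p of 0.935, 0.612, 0.442 and 0.971). Tyrobp, Rgs2, Gata3, Serpinb9, Tnfrsf18 and Cd5 were also called the same way in both pairs. A missing call does not show that the 2 differences are equal.

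Car2, Cd9, Cd244a, Kit, Lat2 (on its dimmer probe set) and Anxa2 rose more in the CD8 pair than in the NKT pair. NKT minus CD4T was -0.13 ± 0.16 for Car2, 0.39 ± 0.19 for Cd244a and 0.28 ± 0.14 for Kit, none of them called there, and the differences between the pairs were 2.69 ± 0.23, 1.91 ± 0.27 and 1.59 ± 0.20 (adjusted p = 0.000179, 0.00492 and 0.00262). Cd9 moved in opposite directions, at 1.71 in CD8aaT and -1.23 ± 0.19 in NKT cells, with both called. Usp18 and Sqle also rose in CD8aaT and fell in NKT cells (-0.74 ± 0.15 and -0.77 ± 0.11). Ahnak rose in both, and more in CD8aaT cells (difference between pairs 1.37 ± 0.20, adjusted p = 0.00551). These statements compare the CD8 pair with the NKT pair alone. In the B cell pair, peritoneal B1 cells minus splenic B2 cells from wild-type C57BL/6 mice (2 arrays each), Ahnak (3.02 ± 0.17, adjusted p = 7.74e-06), Anxa2 (2.78 ± 0.25, adjusted p = 0.000153) and Cd9 (2.43 ± 0.23, adjusted p = 0.000245) also rose, with values above those in the CD8 pair (limma). Car2 (-1.54 ± 0.20) and Usp18 (-1.23 ± 0.19) fell in B1 cells, while Cd244a (0.47 ± 0.23), Kit (0.09 ± 0.17), Lat2 (-0.26 ± 0.22) and Sqle (-0.20 ± 0.14) were not called there. The difference between the CD8 pair and the B cell pair was not tested.

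Several genes called higher on the NKT arrays did not move alike in CD8aaT cells. Il4 (difference between pairs -3.80), Mmp9 (-3.69), Trgv1 (-3.62) and Trgv4 (-3.42) were, beside Cd8b1, those with the largest values in that direction, and in the CD8 pair none of these 4 was called. For Il4 the value comes from 1 of 4 probe sets, which lay at 9.62 to 12.1 on the CD8 arrays, near their lowest intensities. Lyz2, a myeloid gene, was also called higher on the NKT arrays (2.08 ± 0.32). Whether other cells in the NKT sort contribute to Mmp9 or Lyz2 was not tested. Klrk1 and Cd160 were called higher in NKT cells (2.18 ± 0.12 and 3.26 ± 0.21) and not in CD8aaT cells, with differences between pairs of -2.0 and -2.36. Cxcr3 rose in both and less in CD8aaT cells (-1.22 ± 0.23, adjusted p = 0.0275). In the other direction the largest were Actn1, Itm2a, Cd9, Trim59 and Car2, and of these Actn1, Itm2a and Trim59 fell in NKT cells while in the CD8 pair they were at -0.32 ± 0.18, 0.46 ± 0.36 and 0.74 ± 0.27, not called.

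**Figure D5:**
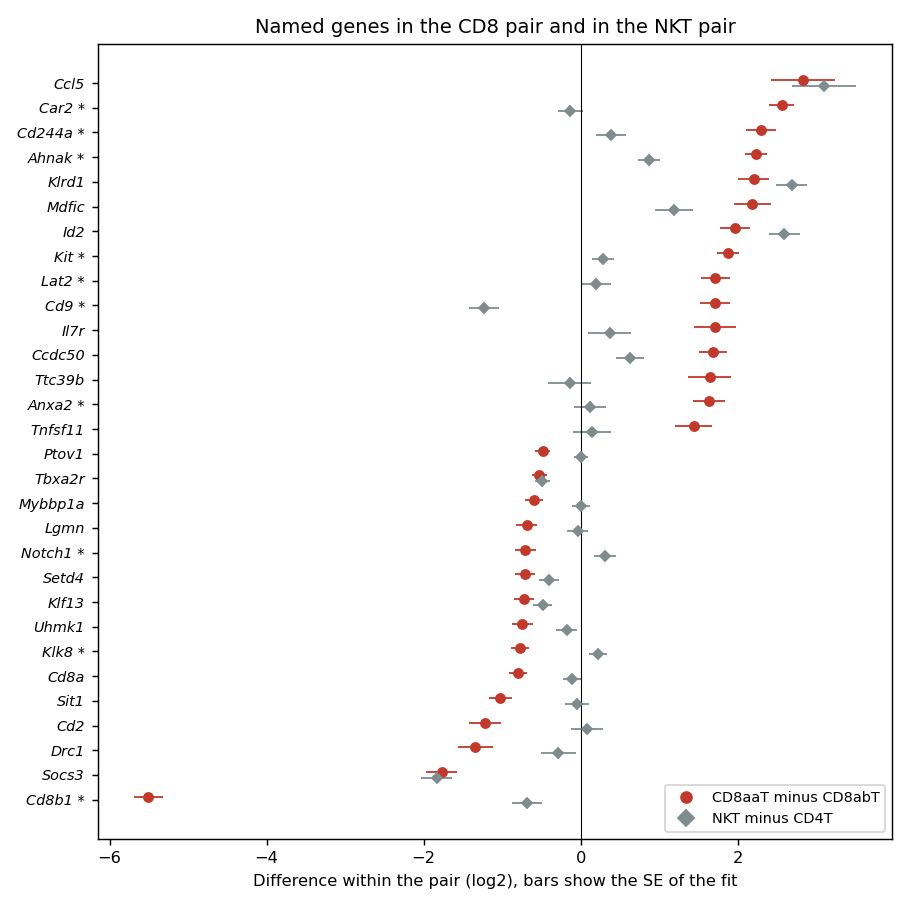
Difference within the CD8 pair (red, CD8aaT minus CD8abT) and within the NKT pair (grey, NKT minus CD4T) on the log2 scale for the 30 genes chosen by size in the CD8 pair, with bars for the standard error of the fit; an asterisk marks genes whose 2 differences differ at an adjusted p under 0.05. Ccl5, Klrd1, Id2 and Socs3 lie near each other in both pairs, while Car2 and Kit lie near 0 in NKT cells and at 2.56 and 1.87 in CD8aaT cells.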

How the data were processed

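Gene expression was measured on 16 arrays of an Affymetrix mouse platform, 1 per sample. Per the labels' protocols, RNA of sorted cells was extracted with TRIZOL, amplified and made into biotinylated cRNA. The intensities deposited by the authors are on a linear scale and were made with RMA, per the submitters' processing notes; the version, the settings and the set of arrays it was run on are not stated in any source used. RMA compresses the differences of dim probe sets. Scanner files were not used here, and depth does not apply to arrays, whose number limits the precision.

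Of 12488 probe sets 66 controls were left out. By the platform annotation 10833 of the rest had 1 gene symbol (8251 genes), 396 several and 1193 were not listed; 10817 had an Entrez number in the RefSeq gene table of GRCm38.p6, and none was renamed. Only probe sets with 1 symbol were named.

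A linear model of the log2 values had 1 mean for each of the 6 groups and a block for the replicate number inside the CD8 pair and inside the NKT and CD4T pair. It was fitted to the 16 arrays together, so the spread of a probe set is estimated once, with 6 residual degrees of freedom (limma 3.58.1, R 4.3.3, moderated statistics, two-sided). The Benjamini-Hochberg adjustment ran over the 12422 probe sets, and a probe set was called at an adjusted p under 0.05. The error printed beside a difference is its standard error in this fit, with 3 arrays per group. The titles number the replicates alike in both groups. That the numbers pair the samples rests on the data, since no label states it: deviations of same-numbered arrays correlated above the minimum of 0.1, at 0.60 to 0.66, and those of different numbers lay between -0.49 and -0.06. Deviations from a mean of 3 arrays sum to 0. The values of different numbers therefore tend below 0 once the same-numbered ones lie above, and add no separate support. No value was equal between arrays of a CD8 group, and all arrays were kept as separate replicates. The fit was tested on simulated data.

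Genes were named by a rule: the 15 largest increases and 15 largest decreases among called genes that moved alike in the 3 numbered pairs without overlap, the markers Cd8b1, Cd244a, Kit and Ccl5, the CD8 and CD3 chains, per gene list up to 6 called members in each direction and up to 3 uncalled ones, and the 5 largest differences between the CD8 and NKT pairs in each direction. A gene with several probe sets is given by the one with the largest difference if chosen by size, and otherwise by the brightest. The members, the gene lists and the tests were chosen with earlier results of these data known. Lists were described by counts and medians, with no test over a list. Alternatives changed the block, the arrays in the fit, the offset, the filter on dim probe sets, the normalization, the prior and a beta-actin covariate, and left out replicates.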

Additional observations from a re-analysis of the deposited data

Results flagged for a closer look

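The results below were singled out because the difference CD8aaT minus CD8abT differed from NKT minus CD4T in the test of that difference itself (limma, adjusted p under 0.05 over all probe sets). Each value is the CD8 pair's difference minus the NKT pair's on the log2 scale. It contains the difference by which the genes called in the CD8 pair were picked.

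Among genes called higher in CD8aaT cells the value was 2.69 for Car2, 2.95 for Cd9, 1.91 for Cd244a, 1.59 for Kit, 1.52 for Lat2 (on its dimmer probe set), 1.52 for Anxa2, 1.37 for Ahnak, 1.65 for Usp18 and 1.41 for Sqle. Cxcr3, called higher in both pairs, was at -1.22. Among genes called lower in CD8aaT cells it was -4.82 for Cd8b1, -1.02 for Notch1 and -1.0 for Klk8.

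Among genes not called in the CD8 pair, the value was -3.80 for Il4, -3.69 for Mmp9, -3.62 for Trgv1 and -3.42 for Trgv4, all of them called higher in NKT cells. For receptors it was -2.36 for Cd160, -2.0 for Klrk1 and -2.22 for Ccr9. Bhlhe40 was at -1.65. Lyz2, a myeloid gene, was at -2.79. In the other direction the value was 3.02 for Actn1, 2.96 for Itm2a, 2.75 for Trim59, 2.55 for Itga4 and 1.01 for Traf5, all of them called lower in NKT cells.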

How the results depend on the processing

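The count of 103 called probe sets was 23 without the replicate block, 39 with the block and the 6 CD8 arrays alone, 2 with these arrays and no block, 161 over the 12 T cell arrays, 398 with the block in all 3 pairs and 195 without replicate 1 of NKT and CD4T. It was 40 with 32 added before log2 and 7 with the beta-actin covariate. Leaving out 1 numbered pair gave 20 (without replicate 2) to 82, and leaving out 1 CD8 array without the block gave 27, 10 and 11 (CD8aaT replicates 1, 2 and 3) and 28, 11 and 24 (CD8abT). It lay between 73 and 95 with a filter on dim probe sets, quantile normalization, median centring or a robust prior with an intensity trend. The count of differences between pairs was 202 with the replicate block and 86 without. Of the 106 named genes, the 48 called ones kept their direction in each alternative that tested them, and 14 kept their call without each number. The direction was fixed where only the block, the other arrays, the filter on dim probe sets or the prior changed. For the called genes it was also fixed where a numbered pair was left out. Over the named genes and alternatives, 1657 of 2214 comparisons kept direction and side of the threshold, 491 lost the call, 51 gained one and 15 changed sign, all 15 in genes not called. With the beta-actin covariate these were Socs2 (-0.20), Bhlhe40 (-0.083), Mmp9 (0.30) and Il4 (-0.21). Without the block and without CD8abT replicate 2 they were Cd3e (0.019), Cd3g (0.054) and Il4 (-0.0029); without CD8aaT replicate 1, Cd3d (0.15) and Cd3g (0.0083); without CD8aaT replicate 2, Mmp9 (0.040); without CD8abT replicate 1, Mmp9 (0.00088) and Il4 (-0.023); without CD8aaT replicate 3, Itm2a (-0.11) and Il4 (-0.026). With the block Itm2a ranged from -0.28 (without replicate 3) to 1.02. Of the list medians 649 moved by less than their spread over the 3 pairs and 107 by more. The 649 include all medians where only the block, the other arrays or the prior changed, which leaves the differences as they were. The cause was not tested. Dim probe sets, compressed by RMA, and 3 arrays per group limit what these data can show.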
